A study of Mus musculus with 6 samples.

Results

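The guanylate-binding proteins are a family of large GTPases that interferons induce, and 10 of their genes, Gbp2 to Gbp11, were followed here among the 49492 genes of the count table. They were chosen by gene symbol, whatever their values, and all 10 passed the filter on low counts that left 15186 genes to test. RNA had been sequenced from splenic CD8 T cells isolated as naive cells from mice on the C57/BL6 background, all carrying the OT-I transgenic T cell receptor, aged 6 to 8 weeks. The WT group was Wild Type-OT-I and the KO group NIK-CD4Cre-OT-I, with 3 libraries each (WT replicates 1 to 3 and KO replicates 4 to 6). Every culture had been stimulated for 24 hours with plate-bound anti-CD3 and soluble anti-CD28, each at 1 µg/ml, so no library represents unstimulated cells. NIK, encoded by Map3k14, is the kinase at the head of noncanonical NF-kB signalling. Cre under Cd4 control acts in developing T cells of both the CD4 and the CD8 lineage. Whether every library is a separate mouse is not in the labels. Both groups held mice of both sexes, as read from sex-linked counts, so the libraries of a group are not all from the same mouse. Libraries of the same sex could still share a mouse. The p-values reflect only how these libraries vary, which may be in part technical.

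Guanylate-binding proteins bind GTP, assemble into polymers on the membranes of pathogen-containing vacuoles and on bacteria, and help to open these compartments to autophagy proteins and inflammatory caspases. Interferon gamma induces their genes, in part through the transcription factor IRF1, and type I interferon can induce them too. They have been studied mostly in macrophages and epithelial cells, and activated T cells, which secrete interferon gamma, also express them.

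The family lies in 2 clusters. Gbp5, Gbp7, Gbp3 and Gbp2 stand in this order on the plus strand of chromosome 3, from 142493978 (the start of Gbp5) to 142638008 (the end of Gbp2) in GRCm38, with Gbp2b, a close relative outside the 10 genes, between Gbp3 and Gbp2. Gbp8, Gbp9, Gbp4, Gbp10, Gbp6 and Gbp11 lie on the minus strand of chromosome 5, from 105014150 (Gbp8) to 105346472 (Gbp11). Gbp11 is annotated as a polymorphic pseudogene and the other 9 as protein coding.

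The promoters of the chromosome 3 genes are shown because the genes share an inducer and lie side by side. RefSeq promoters (GRCm38.p6) were matched for 4 of the 10 genes, and each line holds the 250 bases before the RefSeq start, 5′ to 3′ on the plus strand. Capitals mark matches to an interferon-stimulated response element (ISRE, searched on both strands as GAAA, any 2 bases and GAAA, which reads TTTC, any 2 bases and TTTC in all windows shown), which IRF proteins bind, and to a gamma-activated site (GAS, searched as TTC, any 3 bases and GAA, which reads the same on both strands), an element of promoters that interferon gamma induces.
Gbp2 (chr3:142620413-142620662): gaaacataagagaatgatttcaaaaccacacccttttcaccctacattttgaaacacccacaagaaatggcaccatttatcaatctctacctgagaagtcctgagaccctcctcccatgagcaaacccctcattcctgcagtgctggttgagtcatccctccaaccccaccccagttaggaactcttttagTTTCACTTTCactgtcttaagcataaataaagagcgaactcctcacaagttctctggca
Gbp3 (chr3:142559794-142560043): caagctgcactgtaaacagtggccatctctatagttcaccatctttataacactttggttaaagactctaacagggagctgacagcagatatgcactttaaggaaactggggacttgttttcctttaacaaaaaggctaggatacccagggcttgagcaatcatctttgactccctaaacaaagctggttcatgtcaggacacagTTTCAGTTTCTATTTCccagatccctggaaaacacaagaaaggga
Gbp5 (chr3:142496684-142496933): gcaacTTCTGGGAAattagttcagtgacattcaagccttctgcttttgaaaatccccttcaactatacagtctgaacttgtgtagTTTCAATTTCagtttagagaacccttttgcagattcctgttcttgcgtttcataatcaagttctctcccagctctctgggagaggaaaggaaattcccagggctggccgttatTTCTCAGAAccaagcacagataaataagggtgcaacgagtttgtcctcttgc
Gbp7 (chr3:142530086-142530335): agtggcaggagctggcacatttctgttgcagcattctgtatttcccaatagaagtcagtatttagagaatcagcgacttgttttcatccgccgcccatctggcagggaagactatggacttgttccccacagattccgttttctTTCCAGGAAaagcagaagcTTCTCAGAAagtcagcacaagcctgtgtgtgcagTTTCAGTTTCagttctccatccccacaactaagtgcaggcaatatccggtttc

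All 4 of these genes held an ISRE match, which 3.44% of 32851 RefSeq promoters of the same length (250 bases before to 50 after the start) hold. It began 59 bases before the start in Gbp2, 53 in Gbp7 and 165 in Gbp5. Gbp3 had overlapping matches that began 45 and 39 bases before the start, and its other RefSeq start, further downstream, had none. GAS matches were found in Gbp5 (245 and 52 bases before the start) and Gbp7 (106 and 87 bases), against 8.30% of all promoters, and not in the windows of Gbp2 and Gbp3. Gbp5 also held a match to the NF-kB consensus 77 bases before its start, a motif found in 4.51% of promoters. The GENCODE gene start minus the RefSeq start was -61 bases for Gbp2 and -2956 bases for Gbp5, so the distances hold for the RefSeq starts. A match is a description of these letters and shows no binding.

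**Figure D1:**
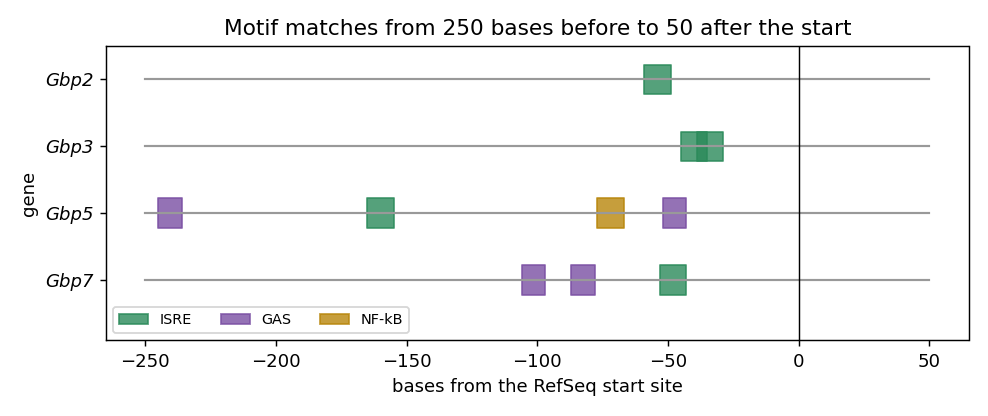
Positions of motif matches around the RefSeq start site (0, vertical line) of the 4 chromosome 3 genes, in bases from the start, with ISRE in green, GAS in purple and NF-kB in ochre. The ISRE matches of Gbp2, Gbp3 and Gbp7 lie within 59 bases of the start and that of Gbp5 further away, and GAS matches are drawn for Gbp5 and Gbp7.

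Some of the family's gene models share sequence, which bears on how reads were assigned. Of the 50-base stretches in its annotated transcripts, Gbp10 shared 84.1% with transcripts of other genes and Gbp6 70.7%. At 100 bases the shares were still 73.5% and 64.5%. The main partners were each other and Gm43302, a gene model whose exons overlap 46.3% of the exon bases of Gbp10 and 29.0% of those of Gbp6, and which is listed at 0 in all 6 libraries. Counts of Gbp6 and Gbp10 are therefore uncertain. Gbp11 (19.2%), Gbp8 (18.1%) and Gbp7 (12.7%) shared less at 50 bases, and the other 5 genes from 1.44% (Gbp5) to 8.05% (Gbp9). Gbp4, Gbp8 and Gbp9 have overlapping gene models with 60 to 61 exon bases in common.

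The libraries held 41311346 to 47851445 counts, and the 10 genes together took 0.242% ± 0.0161 (SD, n = 3) of them in the WT group and 0.288% ± 0.0371 (SD, n = 3) in the KO group. The mice were of both sexes in both groups, as read from Xist and Y-linked counts, with high Xist in WT replicates 1 and 3 and KO replicate 6. Markers of the labelled cell type were present: the 9 CD8 T cell markers summed to 2264 to 2506 CPM in every library, CPM being counts divided by the library total after edgeR's TMM correction. Map3k14, the targeted gene, was at 53.6, 65.5 and 65.3 CPM in the WT libraries and at 50.7, 64.5 and 54.7 CPM in the KO libraries. It did not set the groups apart (log2 fold -0.12, SE 0.11, edgeR adjusted p = 0.81), and a count over all exons cannot check a deletion of some of them. In bulk RNA, fewer cells of a type and less RNA per cell cannot be told apart.

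Gbp2 was by far the most abundant member. This GTPase is recruited to Toxoplasma vacuoles in interferon-treated cells. It was at 1087, 1013 and 847.0 CPM in WT replicates 1, 2 and 3, and at 1019, 1236 and 1091 CPM in KO replicates 4, 5 and 6. It ranked 75th of 15186 tested genes by mean CPM and took 39.7% ± 3.03 (SD, n = 6) of the family's counts. KO replicate 5 was the highest library and WT replicate 3 the lowest, and the other 4 libraries lay close together, so the groups overlapped.

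Per kilobase of exon, Gbp2 had 390.5 CPM ± 48.9 in the WT group (SD, n = 3), and Gbp5 followed at 65.7 ± 7.84, Gbp4 at 61.0 ± 4.16, Gbp9 at 36.2 ± 3.05, Gbp8 at 28.4 ± 4.86, Gbp7 at 24.6 ± 2.24, Gbp3 at 13.5 ± 1.07, Gbp10 at 8.69 ± 1.93, Gbp6 at 7.80 ± 0.883 and Gbp11 at 2.75 ± 1.15. Over all 6 libraries 3 steps in this order separated neighbours without overlap. These were Gbp2 above Gbp5 (5.89-fold in the means), Gbp7 above Gbp3 (1.87-fold) and Gbp6 above Gbp11 (3.26-fold). Every other pair of neighbours, such as Gbp5 and Gbp4 or Gbp10 and Gbp6, had overlapping ranges. Lengths are of all annotated exons of a gene, so the levels per kilobase depend on that annotation. The places of Gbp10 and Gbp6 in this order also rest on counts that their shared sequence makes uncertain.

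**Figure D2:**
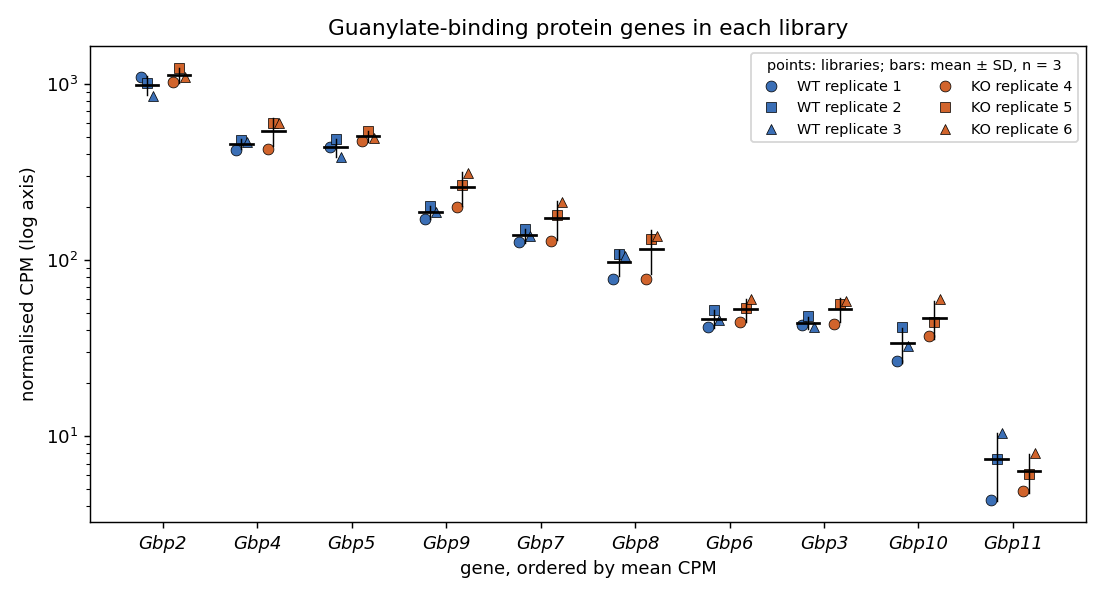
Normalised CPM (log axis) of the 10 genes in each library, WT in blue and KO in orange, with bars for the mean ± SD of 3 libraries. Levels run from Gbp2, at 847.0 CPM or more in every library, down to Gbp11, at 10.5 CPM or less, and the groups overlap for every gene.

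No member was called different between the genotypes. With edgeR's quasi-likelihood test, 0 of 10 had an adjusted p under 0.05, DESeq2 and limma-voom also called 0, and over all tested genes edgeR called 0.00659% (1 gene, Ms4a4c, named after its value was seen) and DESeq2 0.599%. At an unadjusted p under 0.05 edgeR had 1 member higher in the KO group (Gbp9) and 0 lower, where the background is 3.82% higher and 3.44% lower. DESeq2 had 4 higher at that level (Gbp9, Gbp10, Gbp3 and Gbp5), against 3.39% of all genes. The KO libraries lay wholly above the WT libraries for 0 of 10 members, a pattern that 6.68% of all genes had, and wholly below for 0, against 6.07%.

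The estimates were nevertheless positive for 9 of 10 members, where 52.4% of all tested genes were positive. The median log2 fold of the 10 genes was 0.24, beside 0.01 for all tested genes. The genes are measured in the same 6 libraries and vary together, so these 9 signs are not separate pieces of evidence. The median was 0.39 without KO replicate 4, 0.17 without KO replicate 6 and 0.16 without KO replicate 5. Fitted with sex as a covariate it was 0.26.

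Gbp9, a chromosome 5 gene, had the smallest p. The WT libraries held 171.0, 202.5 and 188.1 CPM of it and the KO libraries 199.5, 266.1 and 309.7 CPM. KO replicate 4 lay just under WT replicate 2, and the other KO libraries lay above all WT libraries. The fold was 1.38 (95% interval 1.07 to 1.77, edgeR adjusted p = 0.63). The adjusted p was 0.15 in DESeq2, and the log2 fold of 0.46 ranged from 0.31 (without KO replicate 6) to 0.62 over the alternatives.

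Gbp10 had the largest fold, and its counts are among the uncertain ones. It was at 26.8, 41.6 and 32.6 CPM in the WT libraries and at 37.1, 44.4 and 59.7 CPM in the KO libraries. WT replicate 1 was the lowest and KO replicate 6 the highest, and WT replicate 2 lay above KO replicate 4. The fold was 1.40 (95% interval 0.988 to 1.97, edgeR adjusted p = 0.70), and the log2 fold of 0.48 was 0.27 without KO replicate 6. Gbp6, which shares 45.9% of its 50-base stretches with Gbp10, was at 41.7, 52.1 and 45.5 CPM against 44.2, 53.5 and 59.8 CPM, a fold of 1.13 (95% interval 0.920 to 1.39).

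On chromosome 3, Gbp5 is known for promoting NLRP3 inflammasome assembly in macrophages. Its levels were 439.0, 486.9 and 383.0 CPM in the WT libraries and 476.4, 540.9 and 491.7 CPM in the KO libraries. KO replicate 4 lay under WT replicate 2, so the groups overlapped by 1 library. The fold was 1.15 (95% interval 0.989 to 1.34, edgeR adjusted p = 0.70). For Gbp2 the fold was 1.14 (95% interval 0.950 to 1.36, edgeR adjusted p = 0.72).

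Gbp7, linked to the delivery of oxidase and autophagy proteins to bacterial vacuoles, was at 125.8, 150.9 and 137.1 CPM in the WT libraries and at 127.5, 180.1 and 213.8 CPM in the KO libraries. KO replicates 5 and 6 lay above all WT libraries and KO replicate 4 among them. Gbp3 had the same arrangement, at 42.6, 48.0 and 41.4 CPM against 43.3, 56.5 and 58.8 CPM. Their log2 folds were 0.33 (SE 0.18) and 0.26 (SE 0.12).

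Gbp4 and Gbp8, with overlapping gene models on chromosome 5, also had KO replicates 5 and 6 above all WT libraries. KO replicate 4 lay among the WT libraries for Gbp4 and just below them for Gbp8. Gbp4 was at 421.7, 480.9 and 468.2 CPM in the WT libraries and at 426.0, 599.6 and 600.5 CPM in the KO libraries. Gbp8 was at 78.4, 108.6 and 106.0 CPM against 78.1, 131.0 and 137.2 CPM, so that KO replicate 4 was its lowest library. The folds were 1.19 (95% interval 0.949 to 1.48) and 1.18 (95% interval 0.818 to 1.70).

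Gbp11, the annotated pseudogene, was the member with a negative estimate. It was at 4.32, 7.38 and 10.5 CPM in the WT libraries and at 4.87, 6.09 and 8.04 CPM in the KO libraries. WT replicate 3 was the highest and WT replicate 1 the lowest, so the WT group spanned all KO values. The log2 fold was -0.23 (SE 0.33, edgeR adjusted p = 0.88), and it turned to 0.11 without WT replicate 3. Its lowest count was 194, for which counting error alone is 0.10 on the log2 scale, against a range of 1.27 between libraries.

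**Figure D3:**
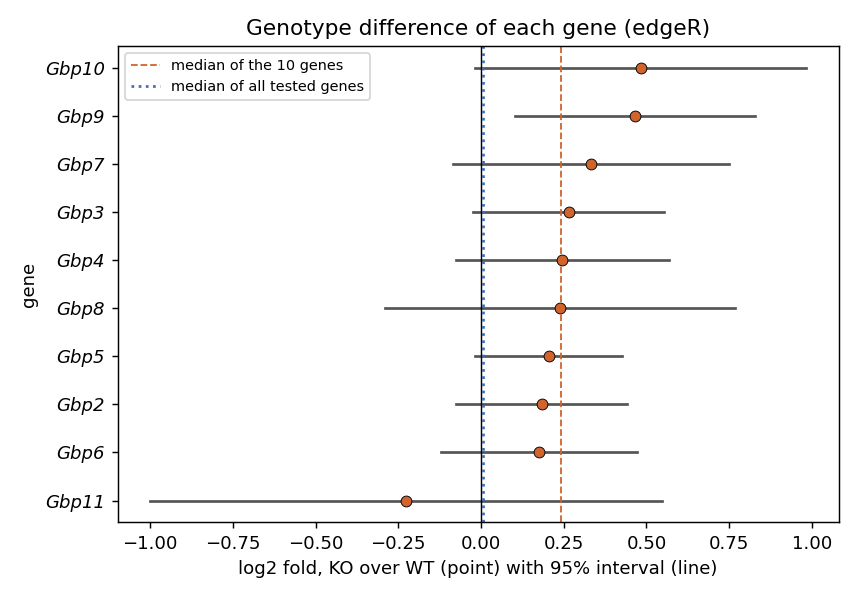
Log2 fold of KO over WT for each gene (points) with the 95% interval (lines), from edgeR over 3 libraries per group, beside the medians of the 10 genes (dashed, 0.24) and of all tested genes (dotted, 0.01). Of the intervals, that of Gbp9 does not include 0, and Gbp11 has the single negative estimate.

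The spread within the KO group was larger than the distance between the groups. Centred on each gene's mean over the 6 libraries, the mean log2 level of the family was -0.28, 0.03 and -0.09 in WT replicates 1, 2 and 3, and -0.18, 0.20 and 0.33 in KO replicates 4, 5 and 6. KO replicate 6 was the highest library for 7 of the 10 genes and WT replicate 1 the lowest for 6. KO replicate 4 lay above the gene's mean for 1 of 10 genes, KO replicate 5 for 9 and KO replicate 6 for 10. The family's summed CPM ran from 2259 to 2592 in the WT group and from 2456 (replicate 4) to 3114 (replicate 5) in the KO group.

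**Figure D4:**
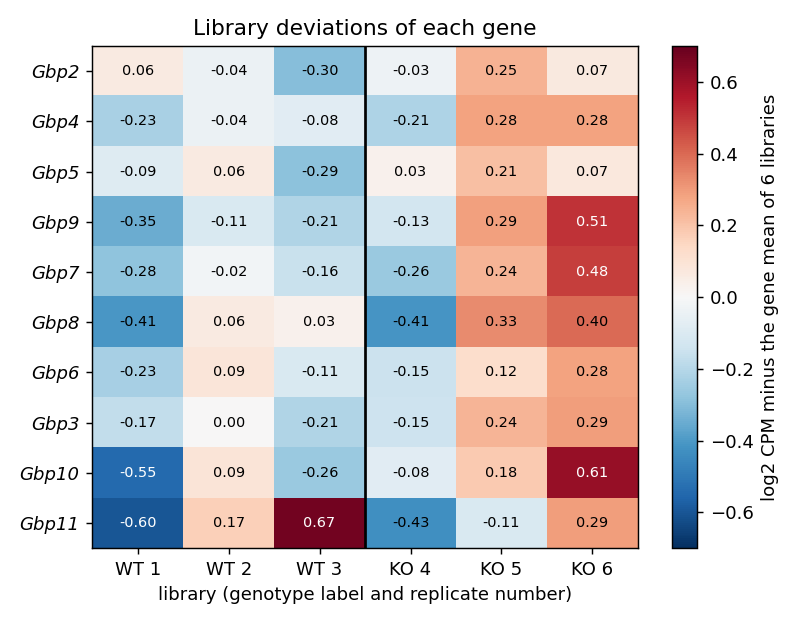
Deviation of log2 CPM from the gene's mean over the 6 libraries, genes in rows by abundance and libraries in columns, red for above and blue for below the mean. The columns of KO replicates 5 and 6 are red for most genes and that of KO replicate 4 is mostly blue, and Gbp2 and Gbp5 are highest in KO replicate 5.

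Members differed in their pattern over libraries. The likeness of 2 genes was taken as the root-mean-square difference of their centred log2 CPM over the 6 libraries. Among 45 pairs the closest was Gbp3 with Gbp4 (0.07), which lie on different chromosomes. Gbp2 and Gbp5, the abundant chromosome 3 genes, were the fourth closest pair (0.08), and both were highest in KO replicate 5 and lowest in WT replicate 3. Gbp6 and Gbp10, the pair with the most shared sequence, ranked 25th (0.20). The most distant pair was Gbp2 with Gbp11 (0.54). Medians of the log2 fold were 0.23 for the 4 genes on chromosome 3 and 0.24 for the 6 on chromosome 5.

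Among 9639 genes outside the family with a mean of at least 5 CPM, those closest to the family's mean profile were Samhd1 (root-mean-square difference 0.03), 9330175E14Rik (0.04), Fyco1 (0.04), 1810026B05Rik (0.05) and Gabbr1 (0.05). The members themselves lay at 0.05 (Gbp6 and Gbp4) to 0.38 (Gbp11) from it. Samhd1, an enzyme that degrades deoxynucleotides, was at 611.0, 737.1 and 694.5 CPM in the WT libraries and at 609.6, 840.4 and 919.4 CPM in the KO libraries. It repeated the family's low KO replicate 4 and high KO replicates 5 and 6.

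Upstream of the family, the ligand gene Ifng ordered the libraries differently, and the receptor gene Ifngr1 put them in the same order as the family's mean level. For Ifng, encoding interferon gamma, the WT libraries held 69.9, 108.3 and 153.9 CPM and KO replicates 4, 5 and 6 held 67.5, 24.2 and 65.0 CPM. Every KO library lay below every WT library, a pattern of 6.07% of all tested genes (log2 fold -1.08, SE 0.45, edgeR adjusted p = 0.69). KO replicate 5, the lowest for Ifng, had the highest summed CPM of the family. The family's mean centred level was 0.20 there and highest in KO replicate 6 (0.33). The receptor chain Ifngr1 was at 59.6, 118.5 and 108.0 CPM against 86.5, 135.6 and 140.5 CPM (log2 fold 0.34, SE 0.28), and the Ifngr2 log2 fold of 0.054 was -0.089 without WT replicate 1 and -0.087 without KO replicate 6. Of the type I interferon genes on the list, Ifnb1 had 0 counts in all libraries, and Ifna2 and Ifna4 had 0 or 1 count in each. Other type I interferon genes were not examined.

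Among transcription factors of the interferon response, Irf1 was at 376.6, 435.2 and 416.7 CPM in the WT libraries and at 385.3, 455.5 and 479.0 CPM in the KO libraries. WT replicate 1 and KO replicate 4 were its lowest libraries, and the groups overlapped. The log2 fold was 0.10 (SE 0.09, edgeR adjusted p = 0.80). Irf8, encoding a partner of IRF1, stood at a log2 fold of -0.045, or 0.063 without KO replicate 5. Of 14 such factors edgeR called 0, with 0 at an unadjusted p under 0.05. Irf2, which competes with IRF1 for its sites, had the smallest p in the higher direction (log2 fold 0.20) and Irf4, a factor of activated lymphocytes, in the lower (log2 fold -0.20). Of the 12 tested ligands, receptors and kinases edgeR called 0. At an unadjusted p under 0.05, 1 was higher, Usp18, a brake on type I interferon signalling (log2 fold 1.09), and 1 lower, Ifng. Over all tested genes 3.82% were higher and 3.44% lower at that level.

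Other interferon-inducible genes were read beside the family, with lists written when their general direction in these libraries was known. Of 17 other interferon-inducible GTPases, 17 were positive and their median log2 fold was 0.43. EdgeR called 0, 8 were higher at an unadjusted p under 0.05 and DESeq2 called 1, Iigp1. Among all tested genes 52.4% were positive, 3.82% were higher at that level in edgeR and DESeq2 called 0.599%. Iigp1, an immunity-related GTPase that acts on parasite vacuoles, was at 135.9, 130.3 and 142.2 CPM in the WT libraries and at 173.3, 180.1 and 222.8 CPM in the KO libraries. Unlike any of the 10 genes, it had every KO library above every WT library, as 6.68% of all tested genes had. Its log2 fold was 0.50 (edgeR adjusted p = 0.53, DESeq2 adjusted p = 0.0022). Gbp2b, the relative inside the chromosome 3 cluster, was barely detected, with 8 to 35 counts per library.

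Of 20 targets that lean to type I interferon, 20 were positive with a median of 0.61. At an unadjusted p under 0.05, 10 were higher, and edgeR called 0 and DESeq2 6. The shares over all tested genes were 52.4% positive and 3.82% higher at that level. Oas1a, a sensor of double-stranded RNA, had the smallest p (log2 fold 1.90, edgeR adjusted p = 0.53). Of 19 tested targets that lean to interferon gamma, 14 were positive with a median of 0.04, edgeR called 0 and DESeq2 1, Cxcl10. For this chemokine the estimate was 1.23 (log2, edgeR adjusted p = 0.53), and the immunoproteasome subunit Psmb8 led the lower direction (log2 fold -0.09). The difference between the lists was not tested.

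By mean centred level, the family and these lists ordered KO replicates 4 and 5 differently. The mean centred log2 level of the family was -0.18 in KO replicate 4 and 0.20 in KO replicate 5. For the type I targets it was 0.26 and -0.17, for the interferon gamma targets 0.17 and -0.20, and for the other GTPases 0.13 and 0.03. The macrophage and monocyte markers, at 0.81 and -0.68, were also higher in KO replicate 4 than in KO replicate 5, highest in KO replicate 6 (1.21) and lowest in WT replicate 3 (-1.18), and their part in these values was not tested. By the same measure the family and the 3 interferon-responsive lists were highest in KO replicate 6, at 0.33 for the family and 1.02 for the type I targets. These means count every gene equally, and summed CPM gave another order of KO replicates 4 and 5. It was 1690 and 1869 for the other GTPases and 6489 and 7019 for the interferon gamma targets, rising like the family's 2456 and 3114. For the type I targets it fell, from 453.6 to 391.6.

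**Figure D5:**
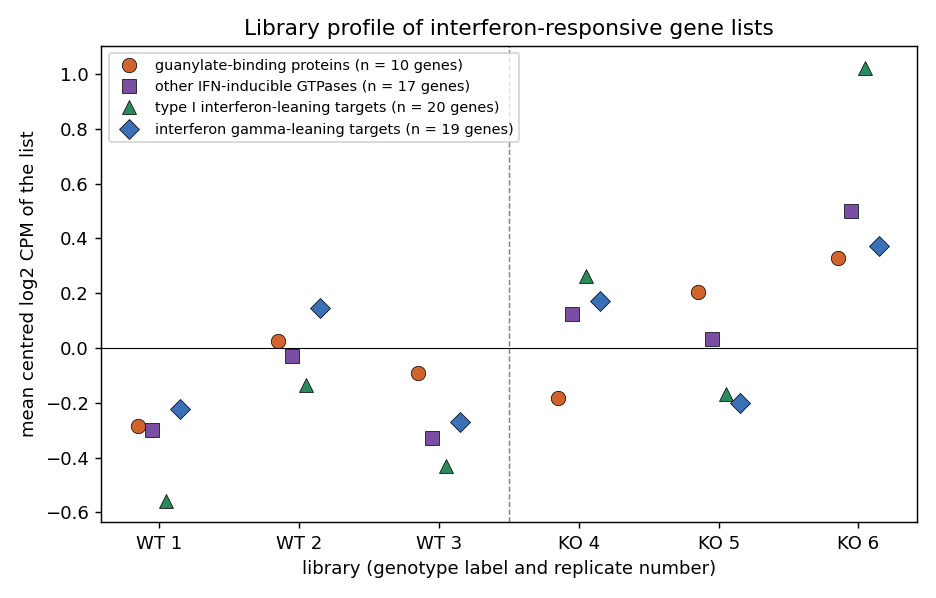
Mean centred log2 CPM of 4 gene lists in each library (points, offset sideways for legibility), with the WT libraries left of the dashed line. The family (orange circles) is the lowest list in KO replicate 4 and the highest in KO replicate 5, and all 4 lists are highest in KO replicate 6. Each gene of a list counts equally in these means. By summed CPM the other GTPases and the interferon gamma targets, like the family, were higher in KO replicate 5 than in KO replicate 4.

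None of the genes whose products work with guanylate-binding proteins was called. The list held the autophagy conjugation proteins that load them onto vacuoles, inflammasome components and prenylation enzymes. Of its 26 genes edgeR and DESeq2 called 0, and the median log2 fold was 0.04. At an unadjusted p under 0.05, 2 were higher, beside 3.82% of all tested genes. Il18, an inflammasome cytokine with under 1 CPM in every library, had the smallest p in the higher direction (log2 fold 0.80), and the autophagy receptor gene Sqstm1 in the lower (log2 fold -0.19). Nlrp3, an inflammasome sensor gene named here after its values were seen, was at 0.557, 0.766 and 0.108 CPM in the WT libraries and at 2.49, 0.0455 and 2.70 CPM in KO replicates 4, 5 and 6, so the groups overlapped. Of 10 genes of the NIK pathway edgeR called 0, with a median of 0.03. At an unadjusted p under 0.05, 2 were higher, against the same 3.82%. Ltb, a ligand of that pathway, had the smallest p among them (log2 fold 0.28) and Map3k14 the smallest p among the lower genes.

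Macrophage and monocyte markers, 15 genes, differed between libraries. They summed to 35.3, 58.5 and 33.0 CPM in the WT libraries, and to 69.7, 31.1 and 83.9 CPM in KO replicates 4, 5 and 6. Of 13 tested, 12 had positive estimates, beside 52.4% of all tested genes. Their median log2 fold was 1.01 and edgeR called 0. Cd163 was at 0 in at least 1 library, and Mpeg1 was the most abundant (log2 fold 0.31). KO replicate 6 was the highest library for these markers and for the family's mean centred level. By summed CPM, KO replicate 5 was the highest library for the family and the lowest for these markers. By mean centred level, the markers were lowest in WT replicate 3 (-1.18, against -0.68 in KO replicate 5). KO replicate 4 was high for the markers and low for the family's mean centred level. The B cell markers summed to 347.3 to 416.6 CPM in the WT group and 341.3 to 372.5 CPM in the KO group, most of it Ighm. Per kilobase of exon Ighm had 163.7 CPM in the WT group, beside 148.0 CPM for Cd8a. The log2 fold of Ighm was -0.014, with the sign changed without KO replicate 4 or 6. The dendritic cell list reached at most 14.2 CPM, with Zbtb46 highest (log2 fold 0.048, which was -0.11 without WT replicate 1) and Cd209a at 0. The CD4 T cell list reached 26.1 CPM, with Zbtb7b highest (log2 fold -0.62). The NK cell list reached 1.21 CPM, with Klre1 highest, at under 1 CPM in every library. Every KO library lay below every WT library for Klre1 (log2 fold -1.82, edgeR adjusted p = 0.60), as for 6.07% of all tested genes. Erythroid and granulocyte markers summed to under 1 CPM, led by Hbb-bs and S100a9. The part of these cells in the family's values was not tested.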

How the data were processed

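The deposited values are raw read counts by gene symbol, in 1 table for all libraries. The submitters' processing notes list HTSeq 0.9.1, DESeq2 and the build mm10, without saying what each did. RNA was isolated with Trizol and libraries made with Illumina protocols, per the labels' protocols. Aligner, annotation and strandedness: not given in the sources used here. Overlapping gene models may therefore share reads. Titles gave the groups, and 0 library columns were unused. Every pair of libraries differed beyond sampling noise (mean chi-square per gene 21.2 to 58.0, genes with at least 200 counts).

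Counts entered edgeR's quasi-likelihood test (version 4.0.16, R 4.3.3) after filterByExpr and TMM scaling, with robust glmQLFit, with Benjamini-Hochberg adjustment over 15186 genes and a threshold of 0.05. Log2 folds are KO over WT, SEs come from the fold and F, and 95% intervals from these and the degrees of freedom that p implies. Log2 CPM for centred levels used a prior count of 2. Alternatives were RLE factors, no low-count filter, at least 1 CPM in 3 libraries, DESeq2 1.42.0 (on the filtered genes), limma-voom 3.58.1, no robust estimation, a term for sex and each library left out. The procedure was tested on simulated counts. Positions, exon lengths and shared sequence come from GENCODE M21 (GRCm38), and promoters from RefSeq. The symbols Gbp1 and Irgd, on the list of other GTPases, had no row. The absence of a symbol does not show that a gene was not counted under another symbol.

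The members and lists were chosen with earlier results of these data known. Named genes were the 10 members, the gene with the smallest p in each direction of each of 7 pathway lists, 8 genes whatever their values (1 is not reported here), the most abundant marker of each of 8 cell types and the 5 genes nearest to the family's profile. Gene models that share exons with members, Ms4a4c and Nlrp3 were named after their values were seen.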

Additional observations from a re-analysis of the deposited data

How the results depend on the processing

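No member was called under any of the 13 alternatives, and all members except Gbp11 kept a positive estimate in each of them. The count of members at an unadjusted p under 0.05, 1 with all libraries, was 2 without a low-count filter and 4 in DESeq2. Leaving out 1 library gave 0 (without KO replicate 6) to 7 (without KO replicate 4), with 4 without WT replicate 2. Over all genes, edgeR's 1 call became 10 without a filter and DESeq2 called 91. Leaving out 1 library gave 1 to 119 calls (119 without WT replicate 1, 2 without WT replicate 2). The cause was not tested. Leave-one-out log2 folds changed sign for Gbp11 (-0.50 to 0.11), Zbtb46 (-0.11 to 0.19), Ifngr2 (-0.089 to 0.18), Ighm (-0.064 to 0.021) and Irf8 (-0.11 to 0.063). No paired analysis was possible because the groups have no replicate number in common. The lowest member count was 194 (Gbp11), where counting error is 0.10 on the log2 scale, below its SE of 0.33. Intervals that include 1 do not show that a gene is unchanged.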
